A study of Mus musculus with 56 samples.

Results

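The cytosolic ribosomal protein genes of mouse gastrocnemius were followed in muscle-tagged ribosomes and in whole-muscle RNA, with and without a muscle deletion of the RNA-binding protein HuR. Members were the protein-coding rows whose mouse symbol has the form Rpl or Rps followed by a number, together with Rplp0, Rplp1, Rplp2 and Rpsa. The count table held 57010 genes and 89 rows matched by symbol, of which 6 were annotated as processed pseudogenes, leaving 83 members. They comprised 32 genes of the small subunit (Rps symbols and Rpsa) and 51 of the large subunit (Rpl and Rplp symbols).

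The 56 libraries came from 28 mice aged 20 to 22 weeks. By the numbers in the titles, each mouse gave 1 ribosomal and 1 total RNA library of the gastrocnemius. The number of mice is that of the sample titles and of the treatment protocol (14 of each sex), whereas the design text speaks of 7 of each sex, so the 7 mice per group rest on the titles. The 8 groups of 7 libraries were female controls, female knockouts, male controls and male knockouts, each in ribosomal and in total RNA. Knockouts carried a floxed Elavl1 gene, which encodes HuR, and controls did not. All mice of both genotypes carried a GFP-tagged L10A ribosomal protein switched on by Cre, and Cre was under the Mlc1f promoter of fast muscle fibres. Ribosomal RNA here means the RNA recovered with the tagged ribosomes, and total RNA was taken from the whole homogenate with all its cell types. The counts are of 3' end tags, so a count stands for a transcript's end and not for its length.

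The cytosolic ribosome is built from a small and a large subunit, each a shell of proteins around ribosomal RNA, and the proteins are needed in matched amounts. Many mRNAs for ribosomal proteins start with a run of pyrimidines at the cap, the terminal oligopyrimidine (TOP) motif, through which mTORC1 and the binding protein LARP1 hold back or release their translation. Skeletal muscle is unusual in using paralogs of some of these proteins, among them Rpl3l in place of Rpl3.

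Transcription starts of the members that the results turn on are shown to let the start of the mRNA be read beside its levels in ribosomal and total RNA. A RefSeq promoter entry (GRCm38.p6) was found for 63 of the 83 members, and none of these sequences was read from the count files, whose build is GRCm39. Each line holds 30 bases, 15 before and 15 from the annotated start, in the direction of transcription, and capitals mark a run of at least 5 pyrimidines over the start. Rpl15, Rps21 and Rps27 stand for members with a TOP start, which begins with C. Rpl34 stands for a long pyrimidine run with T at the annotated start, and the other 4 have no run over the start.
Rpl15, chr14:18270972-18271001, minus strand: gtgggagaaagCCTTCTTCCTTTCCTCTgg
Rps21, chr2:180257364-180257393, plus strand: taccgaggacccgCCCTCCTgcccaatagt
Rps27, chr3:90213634-90213663, minus strand: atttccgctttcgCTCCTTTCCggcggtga
Rpl34, chr3:130730323-130730352, minus strand: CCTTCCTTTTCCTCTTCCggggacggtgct
Rps27l, chr9:66946071-66946100, plus strand: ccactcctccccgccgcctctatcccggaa
Rplp0, chr5:115559452-115559481, plus strand: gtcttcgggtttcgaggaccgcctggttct
Rpsa, chr9:120127751-120127780, plus strand: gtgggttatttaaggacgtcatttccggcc
Rpl3l, chr17:24727811-24727840, plus strand: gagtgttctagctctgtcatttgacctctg

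A TOP start, taken as C at the first base followed by 4 pyrimidines on the transcribed strand, was present at the annotated start of 13 of the 63 members (20.6%) and of 3.01% of 27025 genes with an entry. A pyrimidine run of at least 5 bases over the start was present in 20 members (31.7%) and in 11.8% of all genes. These shares describe annotated starts, which can lie a few bases from the starts used in muscle.

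Libraries held 160313 to 3579221 gene counts in ribosomal RNA and 2427655 to 5848058 in total RNA. Of these, 2135 to 58611 per ribosomal library and 25374 to 84554 per total library fell on members. The targeted gene Elavl1 did not differ between labelled knockouts and controls: its log2 fold change was 0.27 and 0.29 in ribosomal RNA of females and males, and -0.01 and -0.14 in total RNA (edgeR, adjusted p from 0.206 to 0.969). Whether the 3' tags lie outside the floxed exons is not given in the sources used here, so the knockout labels were not checked by the counts. More than 19% of reads lay outside genes in total libraries of 5 mice, namely male controls 25, 26 and 27, female control 14 and female knockout 9, and 7 ribosomal libraries had under 750000 gene counts. Transcripts typical of kidney summed to 1351 counts-per-million (CPM) in total library male knockout 6 and 286 in ribosomal library male knockout 1, and to at most 123 in any other. Nothing in the labels says how mice were housed or processed together, so p-values here measure the spread between mice of a group.

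The members took a larger share of gene counts in ribosomal than in total RNA. In female controls the share was lowest at 1.73%, with a median of 1.93% and a highest value of 1.998% in ribosomal RNA, against 1.15%, 1.39% and 1.54% in total RNA. In male controls it was 1.58%, 1.72% and 1.95% in ribosomal RNA and 1.05%, 1.24% and 1.41% in total RNA. In neither sex did the control libraries of the 2 RNA types overlap. The knockout groups overlapped their controls in all 4 comparisons, with medians of 2.11% (females) and 1.75% (males) in ribosomal RNA and 1.45% and 1.44% in total RNA.

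**Figure D1:**
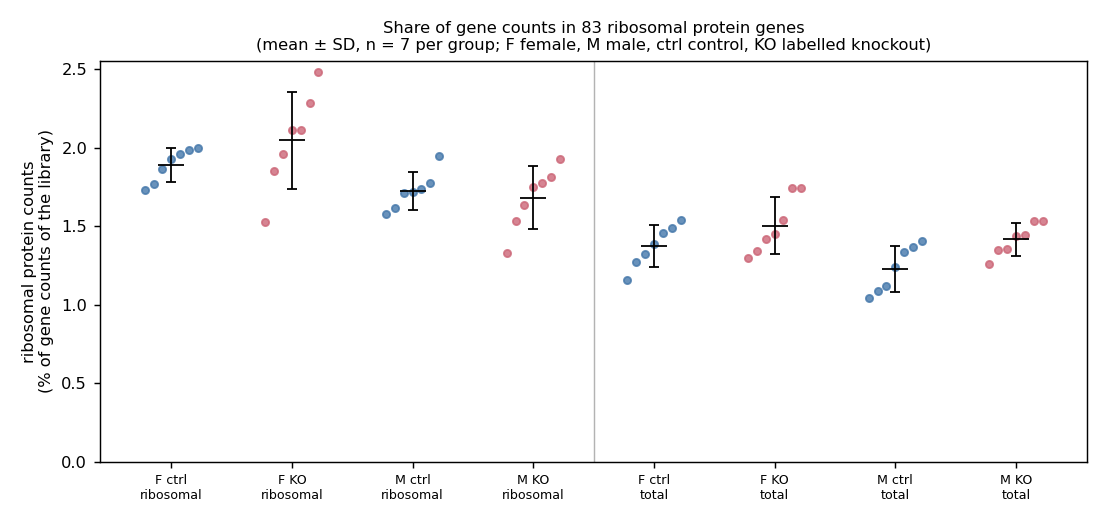
Share of each library's gene counts that fell on the 83 members (y axis, percent) in the 8 groups (x axis); each point is 1 library and the bars are mean ± SD (n = 7). Ribosomal libraries of controls lie above all total libraries of controls of the same sex, and every knockout group overlaps its control group.

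Between members, 3' counts per library differed by orders of magnitude. Averaged over all libraries, the highest were Rplp1 at 1118 CPM, Rps14 at 923, Rps20 at 857, Rps24 at 851 and the muscle paralog Rpl3l at 790 CPM. The lowest were Rpl10l at 0.014, Rpl24 at 0.32, Rpl39l at 0.37, Rps6 at 3.01 and Rps27a at 5.03 CPM. Rps6, Rpl24 and Rps27a encode core subunit proteins, whereas Rpl10l and Rpl39l are paralogs known from the testis. Many ribosomal protein genes have near-identical processed pseudogenes, and reads that map to several places were not counted: in 42 members at least 50% of the 50-base stretches in the last 250 bases of the transcript occur in another transcript of the reference. Levels of different members are therefore not compared further, and each member is compared with itself across groups.

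Ribosomal RNA of controls carried higher levels of most ribosomal protein mRNAs than total RNA, with Rpsa, Rps24, Rps9 and Rpl14 among the highest. Of 80 members tested, 48 were higher and 8 lower in ribosomal RNA of female controls, and 61 were higher and 4 lower in male controls (edgeR quasi-likelihood test, adjusted p under 0.05). Among all 12546 genes tested, 68.1% passed in females (30.1% higher, 38.1% lower) and 70.7% in males (32.1% higher, 38.6% lower). The members' median log2 fold change was 0.60 in females and 0.76 in males, beside -0.12 and -0.09 over all genes. Passing in the same direction in both sexes were 48 higher and 4 lower members. Small-subunit genes had medians of 0.80 and 0.83, large-subunit genes of 0.55 and 0.70, a difference that was not tested.

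Rpsa, a small-subunit protein also known as the laminin receptor precursor, stood at 67.3, 133 and 257 CPM (lowest, median, highest) in ribosomal RNA of female controls and at 29.0, 32.8 and 36.6 CPM in total RNA. The groups did not overlap, and the log2 fold change was 2.14 (SE 0.224, edgeR adjusted p = 1.47e-12) in females and 1.57 (SE 0.219, adjusted p = 6.09e-09) in males. Rps24, needed for small-subunit RNA processing, ranged from 751 to 3461 CPM, with a median of 1177 CPM, in ribosomal and from 365 to 434 CPM, median 394 CPM, in total RNA of female controls. Its groups likewise did not overlap, with log2 fold changes of 2.02 in females and 1.45 in males.

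Rps9, bound early to small-subunit RNA, had log2 fold changes of 1.77 in females and 1.67 in males. On the large subunit, Rpl14 gave 594, 798 and 1161 CPM in ribosomal and 252, 283 and 319 CPM in total RNA of female controls. Every ribosomal library was above every total one, at log2 fold changes of 1.53 (SE 0.12) in females and 1.52 (SE 0.12) in males. The stalk proteins Rplp1 and Rplp2, which recruit translation factors to the ribosome, were higher in ribosomal RNA too, by 1.69 and 1.55 log2 in females and 1.34 and 1.23 in males.

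Rplp0, the protein to which Rplp1 and Rplp2 attach, went the other way. It ranged from 116 to 214 CPM (median 174 CPM) in ribosomal and from 231 to 299 CPM (median 260 CPM) in total RNA of female controls, without overlap. Its log2 fold change was -0.58 (SE 0.101, adjusted p = 1.02e-06) in females and -0.30 (SE 0.0982, adjusted p = 0.00592) in males. The 3 other members lower in ribosomal RNA of both sexes were Rpl3, at -0.71 and -0.85, Rps27, at -1.13 and -0.43, and Rpl12, at -0.82 and -0.34. Rpl12 sits at the base of the stalk. In males, Rpl12 no longer passed with the mouse as a block (log2 fold change -0.32) or in 5 of 7 fits that left out 1 mouse (control 20, 21, 22, 23 or 26, from -0.35 to -0.23), and Rps27 in 3 of 7 (control 20, 21 or 23, from -0.36 to -0.33).

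The counts depended on the scaling of libraries, which is by TMM in the values above. Without a scaling factor, 33 members were higher and 20 lower in females and 38 higher and 7 lower in males. Of all genes, 69.7% passed in females and 68.9% in males at that setting. The members' median stayed 0.72 (females) and 0.81 (males) log2 above that of all genes, beside 0.72 and 0.84 with TMM. Rpl23a and Rpl22 in female controls turned from higher to -0.03 each.

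**Figure D2:**
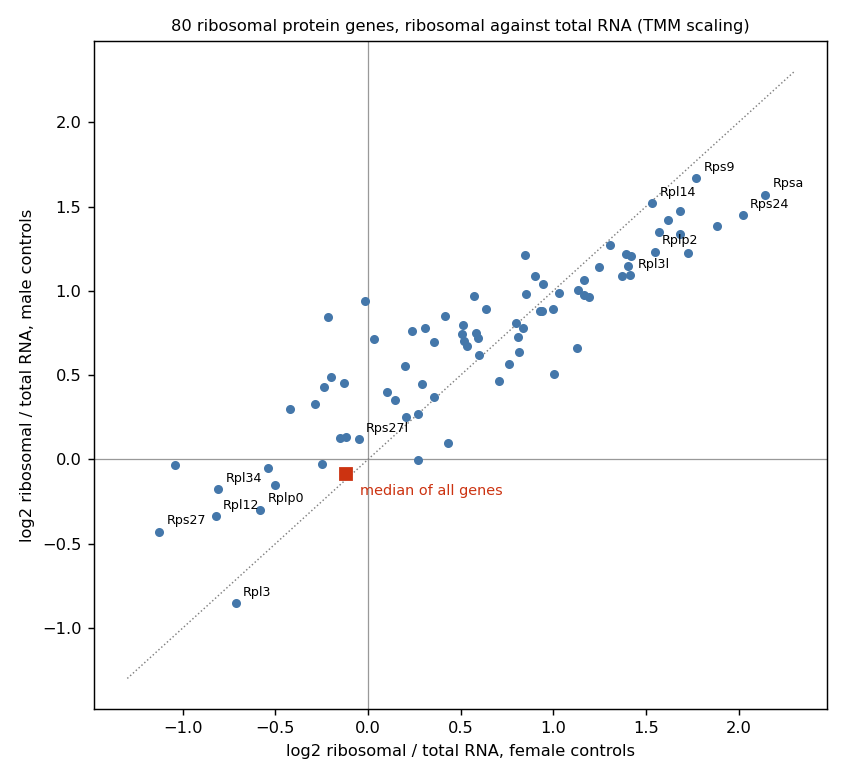
Log2 fold change between ribosomal and total RNA in female controls (x axis) and male controls (y axis) for the 80 tested members; each point is 1 gene, the square is the median over all genes tested and the dotted line marks equal values. Most members lie above and to the right of the square, with Rpsa, Rps24, Rps9 and Rpl14 among those far out. Rpl3, Rps27, Rpl12 and Rplp0 lie on the negative side of both axes.

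Cell-type markers moved with this contrast. Of 14 muscle-fibre markers, 11 were higher and 2 lower in ribosomal RNA of female controls, and 10 higher and 3 lower in male controls. In female controls all 10 fibroblast and matrix markers, all 9 endothelial markers and 8 of 9 macrophage markers were lower. The summed level of the fibroblast list ranged from 385 to 629 CPM in ribosomal and from 2003 to 3640 CPM in total RNA of female controls. The tag was switched on by Cre under a promoter of fast muscle fibres, whereas total RNA held all cell types. The part of these markers' cells in the members' values was not tested.

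Members with an annotated TOP start had a median log2 fold change between ribosomal and total RNA of 0.42 (13 genes) in females and 0.78 in males. Members with an entry and no TOP start had medians of 0.63 (47 genes) and 0.73. Rps27, with its TOP start, was among the members lower in ribosomal RNA, and Rpsa, without one, was the highest in females. Total RNA holds all cell types, so these values do not measure translation. The part of other cells in them was not tested. A list of other TOP mRNAs held translation factors and related genes. Of 13 listed genes with a promoter entry, 4 had a TOP start by the rule used here, so the split of members can miss TOP mRNAs. Of 20 listed genes, 16 were higher and 2 lower in ribosomal RNA of females, and 15 higher and 1 lower in males (medians 0.74 and 0.86). Over all genes 30.1% and 32.1% were higher. Among the higher listed genes were the initiation factor Eif4b at 1.28 and 1.17 and the elongation factor Eef2 at 1.05 and 1.24. Of 31 tested ribosome biogenesis genes, 23 were higher and 2 lower in females, and 21 higher and 2 lower in males, with medians of 0.65 and 0.52.

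Some paralog pairs, though not all, divided unequally between the RNA types. Rpl3l, the striated-muscle form of Rpl3, ranged from 880 to 1367 CPM (median 1148 CPM) in ribosomal and from 380 to 496 CPM (median 407 CPM) in total RNA of female controls, while Rpl3 ranged from 8.51 to 27.7 CPM (median 12.7 CPM) and from 18.7 to 24.8 CPM (median 21.5 CPM). The Rpl3l groups did not overlap and the Rpl3 groups did. The log2 ratio of Rpl3l to Rpl3 within a library was 6.22 ± 0.544 in ribosomal and 4.24 ± 0.251 in total RNA of female controls (SD, n = 7), and 6.33 ± 0.443 and 4.54 ± 0.778 in male controls. As 77.6% of the 3' stretches of Rpl3 occur elsewhere and none of Rpl3l, the ratio is not a ratio of transcripts. The RNA types also differ in the cells they come from, and the part of this in the ratios was not tested. The ratios were not tested.

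Rps27l, a p53-inducible paralog of the zinc-finger protein Rps27, did not pass between RNA types (log2 -0.05 and 0.12). Its log2 ratio to Rps27 was 3.56 ± 0.618 in ribosomal and 2.27 ± 0.195 in total RNA of female controls, and 2.70 ± 0.424 and 2.07 ± 0.179 in male controls. The ratio of Rpl22l1 to Rpl22 was lower in ribosomal RNA, at -3.62 ± 0.231 against -2.99 ± 0.289 in female controls. Of the 3' stretches, 53.4% of Rps27, 14.8% of Rps27l, 51.9% of Rpl22l1 and 14.9% of Rpl22 occur elsewhere. These ratios are thus not ratios of transcripts either. Rpl10a, the endogenous gene of the tagged protein, gave 0.60 and 0.62 and did not pass in either sex (edgeR adjusted p = 0.0945 and 0.0878). Whether transcripts of the tagged copy are counted with it is not given in the sources used here.

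In ribosomal RNA of females, 5 of 78 members were higher and 2 lower in labelled knockouts than in controls, in a comparison that called 16.8% of all genes (8.44% higher, 8.41% lower). These 7 are 8.97% of the members tested, below the share over all genes in this fit. The members' median log2 fold change was 0.14 beside -0.02 over all genes. At an unadjusted p under 0.05 there were 29. The share of all genes at that threshold was not taken, here or in the comparisons below. Such counts are therefore not read as a result about the members. The 71 others did not pass.

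Rpl34, a large-subunit protein, had the largest fold change of the 78. Its lowest, median and highest levels were 5.60, 13.4 and 25.3 CPM in controls and 20.0, 36.8 and 59.5 CPM in knockouts. Of 7 knockout libraries, 6 were above every control, and the log2 fold change was 1.82 (SE 0.294, edgeR adjusted p = 4.81e-05). Rplp0 ranged from 116 to 214 CPM in controls and from 189 to 262 CPM (median 249 CPM) in knockouts, with 5 knockouts above all controls, and rose by 0.49 log2 (SE 0.113, edgeR adjusted p = 0.00281). The large-subunit genes Rpl18 (log2 0.39) and Rpl27a (0.36) also rose.

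Rps27l fell. It measured 249, 288 and 386 CPM in controls and 114, 184 and 263 CPM in knockouts, and 6 of the 7 knockouts were below every control. Its log2 fold change was -0.68 (SE 0.156, edgeR adjusted p = 0.00242).

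These calls shift with the test, with the handling of shallow libraries and with scaling. By limma-voom with sample weights 26 of 78 members were higher and 4 lower, where 21.1% of all genes passed. Leaving out the 7 ribosomal libraries under 750000 gene counts gave 19 higher and 1 lower of 80 members, where 16.8% of all genes passed. Single libraries left out gave between 4 members (without control 15) and 18 (without control 19). Among those fits Rpl27a was lost in 5 of 14 and Rpl18 in 2 (without control 21 or knockout 2). Without a scaling factor the count was 2 higher and 4 lower, where 17.8% of all genes passed. Rplp0, Rpl18 and Rpl27a then did not pass, whereas Rpl34 and Rps27l did.

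Markers of other cells moved in the same samples. All 10 fibroblast and matrix markers rose (summed level 385 to 629 CPM in controls, 609 to 2140 CPM in knockouts), as did all 6 tested endothelial markers (83.7 to 165 CPM, then 107 to 409 CPM), 4 of 5 tested macrophage markers (35.1 to 54.9 CPM, then 81.7 to 167 CPM) and all 5 tested erythroid markers (155 to 308 CPM, then 334 to 1246 CPM). Of 14 muscle-fibre markers 4 rose (104800 to 333400 CPM, then 190700 to 301700 CPM). Mitochondrially encoded mRNAs summed to 1630 to 7162 CPM in controls and 5989 to 27550 CPM in knockouts, and gene counts per library had a median of 1589142 in controls and 936900 in knockouts. Cdh5, Kdr, Cldn5, Emcn, Tie1, Pdgfra, Col6a1, Cd68, Csf1r, C1qb, Adgre1, Ptprc and Slc4a1 were at 0 in at least 1 control library, and no marker of these lists was at 0 in every library of a group. The part of these cells, transcripts and depths in the members' values was not tested.

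In ribosomal RNA of males 1 of 78 members rose and none fell, in a comparison that called 8.96% of all genes (4.09% higher, 4.87% lower). That member was Rplp0. Its levels were 143, 174 and 196 CPM in controls and 188, 207 and 263 CPM in knockouts. All but 1 of the knockouts were above every control, at a log2 fold change of 0.37 (SE 0.109, edgeR adjusted p = 0.0254). The members' median was -0.03, beside -0.01 over all genes, and 8 members had an unadjusted p under 0.05. The call was lost without a scaling factor (log2 0.42) and on leaving out knockout 6 (0.35), 10 (0.35) or 13 (0.33) or control 21 (0.33). All 5 tested erythroid markers rose here (187 to 301 CPM in controls, 415 to 604 CPM in knockouts), none of the 10 fibroblast markers passed, and their part was not tested.

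In total RNA of females, 4 of 80 members rose and none fell, where 8.49% of all genes passed (3.79% higher, 4.7% lower). The sign was positive for 69 of the 80, and the median was 0.13 beside 0.01 over all genes. Rpsa had levels of 29.0, 32.8 and 36.6 CPM in controls and 38.1, 39.5 and 54.1 CPM in knockouts. All 7 knockouts were above every control, at a log2 fold change of 0.42 (SE 0.0966, edgeR adjusted p = 0.00627).

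Rplp0 gave 231, 260 and 299 CPM in controls and 275, 318 and 380 CPM in knockouts of the same comparison. It rose by 0.31 log2 (SE 0.0827, edgeR adjusted p = 0.0161), with 5 knockouts above all controls. Rpl15, an early part of large-subunit assembly, ranged from 34.2 to 50.3 CPM (median 42.1 CPM) and from 42.5 to 71.1 CPM (median 54.6 CPM), overlapping in part, and rose by 0.36 log2 (SE 0.104, edgeR adjusted p = 0.0295). Rps26, at the mRNA exit of the small subunit, rose by 0.22 log2 (edgeR adjusted p = 0.0451).

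The Rps26 call was lost in 11 of 14 fits that left out 1 library, that of Rpl15 without control 17 (0.35) or 21 (0.33) or knockout 1 (0.28) or 10 (0.30), and that of Rplp0 without knockout 10 (0.28); with knockout 10 left out 1 member passed, and without knockout 9, 6 did. In a fit of all 56 libraries Rpsa (0.43), Rpl15 (0.37) and Rps26 (0.23) did not pass. Of 10 fibroblast markers 6 rose (2003 to 3640 CPM in controls, 3080 to 4960 CPM in knockouts), of 9 macrophage markers 4 (101 to 192 CPM, then 200 to 281 CPM) and of 5 erythroid markers all (561 to 891 CPM, then 655 to 1841 CPM), and their part was not tested.

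In total RNA of males, 16 of 80 members rose and none fell, where 14.2% of all genes passed (6.83% higher, 7.36% lower). The sign was positive for 72 members and the median was 0.23 beside 0.00 over all genes. Of the 16, 12 belong to the large subunit (48 tested, median 0.21) and 4 to the small (32 tested, median 0.26). A difference between the subunits was not tested.

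Rpl15 gave 32.8, 34.1 and 38.9 CPM in controls and 38.3, 51.0 and 55.7 CPM in knockouts. All knockouts but 1 were above every control, and it rose by 0.48 log2 (SE 0.106, edgeR adjusted p = 0.00397). Rplp0 ranged from 194 to 234 CPM (median 222 CPM) in controls and from 235 to 320 CPM (median 278 CPM) in knockouts, with no overlap, a log2 fold change of 0.34 (SE 0.083, edgeR adjusted p = 0.00778). Rpl12 ranged from 20.5 to 38.2 CPM and from 34.0 to 49.5 CPM, and rose by 0.54 (SE 0.13), with 6 knockouts above all controls. Rps2, near the mRNA entry of the small subunit, rose by 0.51, Rpl39, which lines the peptide exit tunnel, by 0.53, and Rps21 by 0.39. Rpl9, Rps23, Rpl41, Rpl23a, Rpl37, Rpl22, Rpl38 and Rpl35 rose too, with log2 fold changes from 0.29 to 0.52.

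The count depended on single libraries and on a group of 5. Leaving out knockout 13 alone gave 7 members and leaving out knockout 2 gave 22, and Rpl23a and Rpl22 were each lost in 6 of 14 such fits. The members' share of gene counts in total RNA was 1.05% to 1.30% in the 5 libraries with over 19% of reads outside genes and 1.24% to 1.74% in the other 23. Among male controls it was 1.05% to 1.12% in the 3 such libraries (controls 25, 26 and 27) and 1.24% to 1.41% in the other 4. Leaving out all 5 left 1 member higher, Rpl15 (log2 0.41), with 4.86% of all genes then called, a median of 0.10 and a positive sign for 65 of 80. Rplp0 then had a log2 fold change of 0.28, Rpl12 of 0.32 and Rps2 of 0.29, and none of them passed. Fewer libraries also entered that fit.

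**Figure D3:**
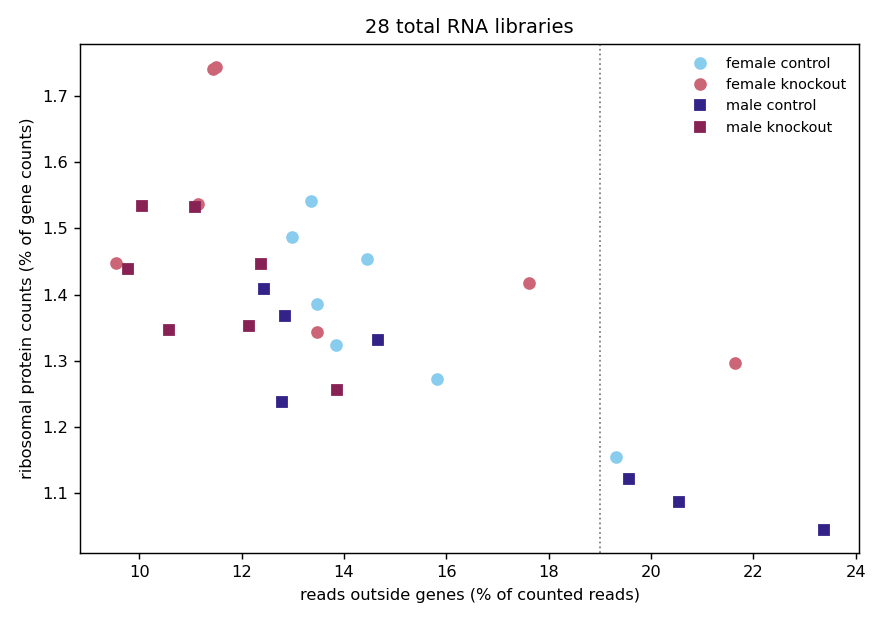
Members' share of gene counts (y axis, percent) against reads outside genes (x axis, percent of counted reads) in the 28 total RNA libraries; each point is 1 library, coloured by group, and the dotted line marks 19%. The 5 libraries to the right of the line, 3 of them male controls, have shares of 1.05% to 1.30%.

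Of 10 fibroblast markers 9 rose in total RNA of male knockouts (2531 to 3893 CPM in controls, 3743 to 5572 CPM in knockouts), as did all 5 tested erythroid markers (593 to 871 CPM, then 1256 to 2175 CPM) and 1 of 9 macrophage markers, while none of the 14 muscle-fibre markers passed. Their part in the members' values was not tested. In whole-muscle RNA more cells of a type and more RNA per cell cannot be told apart.

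Over the 4 knockout comparisons, 23 members passed in at least 1. Rplp0 passed in all 4, always higher, and Rpl15 in the total RNA of both sexes, while 20 members passed in 1. The ribosomal and total libraries come from the same mice by the numbers in their titles, so the comparisons within a sex are not taken as independent. Of 78 members with a value in each comparison, 18 were positive in all 4 and 1 was negative in all 4. These counts over the 4 comparisons were not made for all genes, of which 8.49% to 16.8% passed in a single comparison. They are therefore not read as a result about the members. The plot of the 4 comparisons places the calls among all members.

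**Figure D4:**
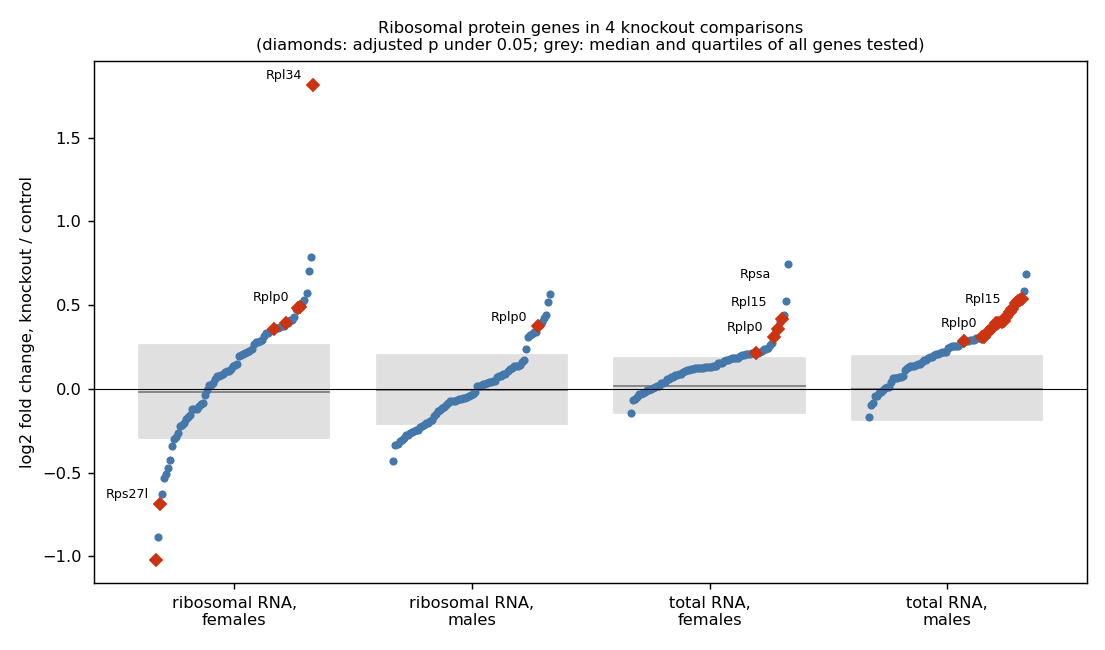
Log2 fold change between labelled knockouts and controls (y axis) of every tested member in the 4 comparisons (x axis), ordered by size within each; diamonds passed at an adjusted p under 0.05, and the grey band is the median and quartiles of all genes tested. Most members of total RNA lie above 0. In ribosomal RNA of females Rpl34 is the highest member, and Rps27l is among those that passed as lower, though not the lowest.

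**Figure D5:**
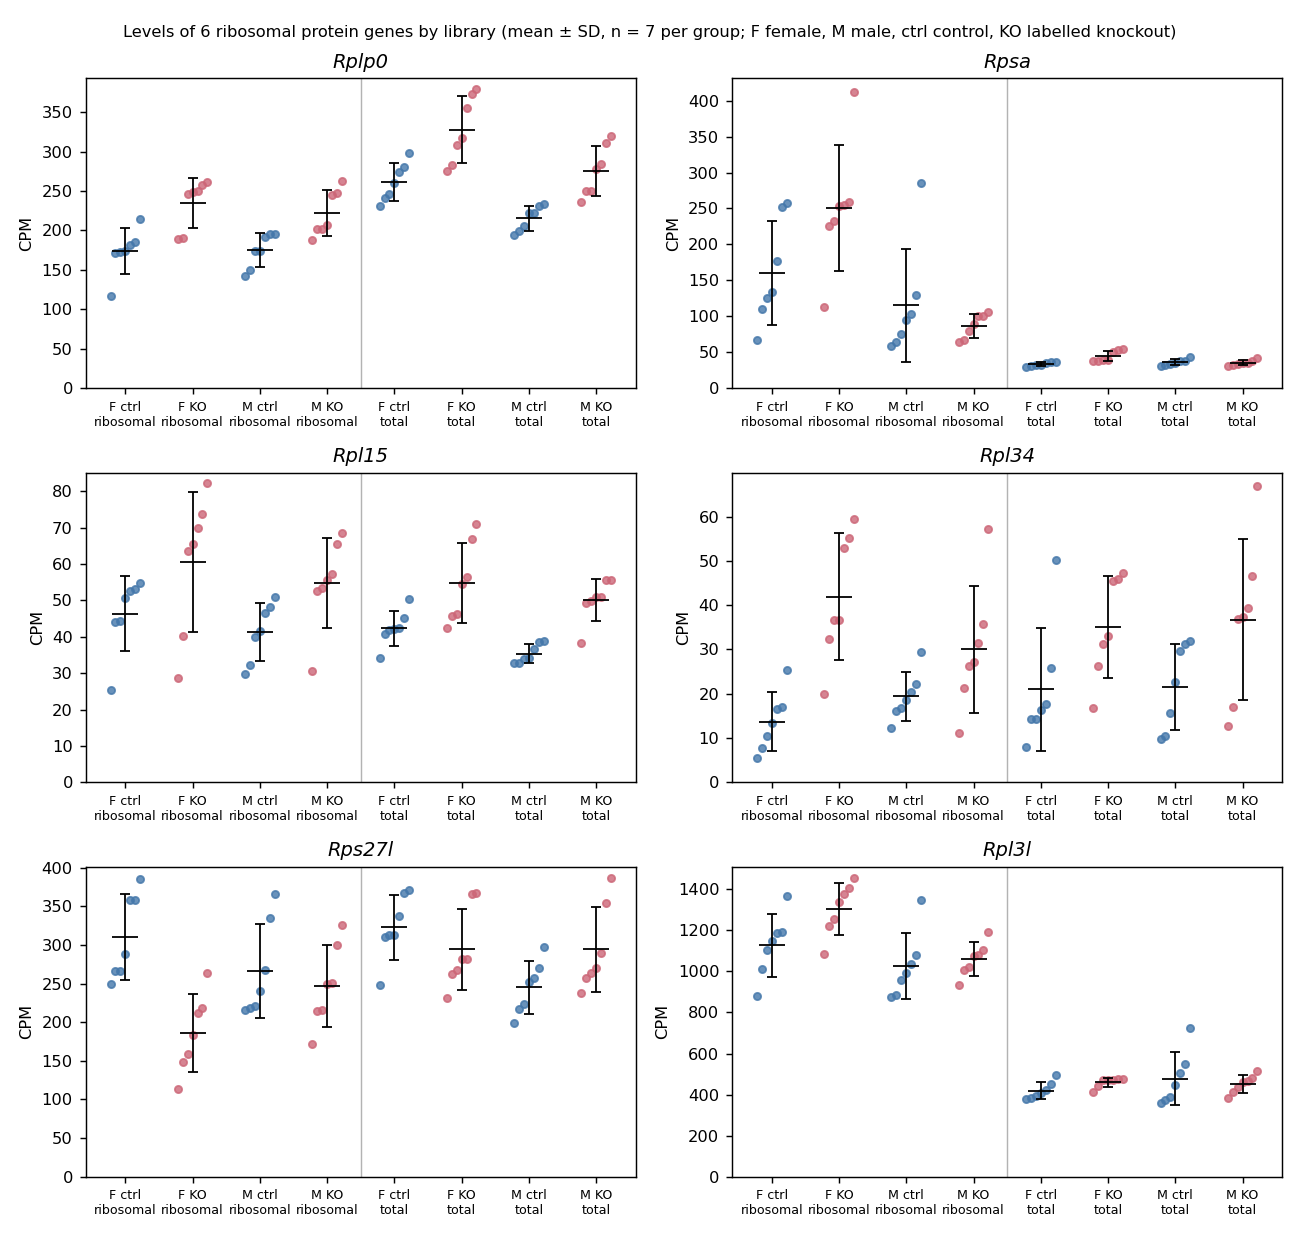
Levels (y axis, CPM) of Rplp0, Rpsa, Rpl15, Rpl34, Rps27l and Rpl3l in the 8 groups (x axis); each point is 1 library and the bars are mean ± SD (n = 7). Rplp0 is higher in the knockout group in all 4 comparisons, and Rpl3l of controls is higher in every ribosomal than in every total library of the same sex.

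The knockout difference itself was compared between the sexes. In ribosomal RNA 1 of 78 members had a higher and 1 a lower difference in males, where 3.43% of all genes passed (1.89% higher, 1.54% lower), and 22 had an unadjusted p under 0.05. Rpl34 had a male difference 1.38 below the female one (-1.38, SE 0.383, edgeR adjusted p = 0.0382), with male levels of 12.3, 18.5 and 29.4 CPM in controls and 11.1, 27.1 and 57.2 CPM in knockouts. The Rpl34 call was lost in 13 of 28 fits that left out 1 library and with DESeq2 (-1.33). Markers were lower in this difference too, among them 5 of 10 fibroblast (median -1.41), 2 of 4 tested smooth muscle, 1 of 3 tested Schwann cell, 1 of 5 tested macrophage and 2 of 14 muscle-fibre markers, and their part was not tested. In total RNA no member of 80 passed by edgeR, DESeq2 or limma-voom, as no gene of all did by edgeR (background 0%), and 5 members had an unadjusted p under 0.05.

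Male controls were compared with female controls. In total RNA 17 of 80 members were lower in males and none higher, where 8.7% of all genes passed (3.95% lower, 4.75% higher). The sign was negative for 75 members and the median was -0.23. Rpl12 was at 20.5, 28.6 and 38.2 CPM in males and 35.9, 43.4 and 49.7 CPM in females, with 6 of 7 males below every female (log2 -0.64, SE 0.129, edgeR adjusted p = 0.00137).

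For Rpl23 (log2 -0.42) and Rps2 (-0.53) all 7 males were below every female. Rpl23 ranged from 96.9 to 138 CPM in males and from 142 to 181 CPM in females. Rplp0 (-0.29) and Rps27l (-0.41) were also among the 17, but lost in 4 and 5 of 14 fits that left out 1 library; such fits gave from 9 (without female control 18) to 21 members (without male control 21). Without the 5 libraries with over 19% of reads outside genes, 6 of 80 members were lower, where 8.4% of all genes passed, and the median was -0.15. Of 9 macrophage markers 3 were higher in males (summed level 111 to 392 CPM, females 101 to 192 CPM), of 10 fibroblast markers 2 were higher (2531 to 3893 CPM, females 2003 to 3640 CPM) and of 6 adipocyte markers 2 were lower (142 to 325 CPM, females 216 to 424 CPM), and their part was not tested. The male controls of this comparison are those of the male knockout comparison, so the 2 sets of values are not separate evidence.

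In ribosomal RNA, 5 of 78 members were lower in male than in female controls and none higher, where 7.63% of all genes passed (3.37% lower, 4.25% higher). Rpl39 was at 74.3, 86.3 and 115 CPM in males and 114, 135 and 173 CPM in females, with 6 males below every female (log2 -0.61, SE 0.129, edgeR adjusted p = 0.00164). Rpl19, a large-subunit protein at the subunit interface, ranged from 24.95 to 52.9 CPM and from 44.4 to 110 CPM (log2 -0.75, edgeR adjusted p = 0.00798). The other 3 were Rps10 (-0.64), Rpl6 (-0.53) and Rps28 (-0.53), lost in 9, 10 and 10 of 14 fits that left out 1 library. Leaving out 1 library gave from 2 (without female control 16) to 22 (without male control 20) members.

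Whether the knockout difference was the same in ribosomal as in total RNA was tested in a fit of all libraries. In females no member of 80 passed (background 3.46%, with 1.85% higher and 1.61% lower, and 13 members at an unadjusted p under 0.05). With the mouse as a block 1 did (background 2.08%). In males none passed by edgeR, DESeq2 or limma-voom (background 0.128%, with 0.0319% higher and 0.0956% lower, and 17 members at an unadjusted p under 0.05), although 73 of 80 were negative, with a median of -0.27. Without the 5 libraries with over 19% of reads outside genes that median was -0.14 and 63 were negative. Rplp0 had differences of 0.10 (SE 0.142) in females and 0.00 (SE 0.139) in males. For Rps27l in females it was -0.61 (SE 0.203, edgeR adjusted p = 0.0787).

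Genes that act on ribosomal protein production were followed as well. From a list of 16 that control these mRNAs through mTOR, LARP1 or MYC, 5 of 15 tested fell in ribosomal RNA of female knockouts, 3 of 15 in males, 2 of 16 in total RNA of females and 1 of 16 in males, and none rose. Over all genes, 8.41%, 4.87%, 4.7% and 7.36% fell in these comparisons, the last close to the list's 1 of 16. Eif4ebp1, a translation repressor inactivated by mTORC1, fell by 0.88 log2 in ribosomal and 0.81 in total RNA of females and by 0.55 in ribosomal RNA of males (edgeR adjusted p = 0.00314, 0.00862 and 0.0356). Rps6kb1, the kinase of the ribosomal protein S6, fell by 0.47 and 0.53 in ribosomal RNA of females and males and by 0.47 in total RNA of males. Rheb, which activates mTORC1, fell by 0.48 in ribosomal RNA of females.

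Among 20 other TOP mRNAs, 2 rose in ribosomal RNA of females, Pabpc1 (0.64) and Eef1g (0.37). In males 1 rose, Tpt1 (0.46), and 2 fell, Eif3h and Eif4b. In total RNA Eef2 (-0.32) and Eif4b (-0.29) fell in females, while Tpt1 (0.57) and the elongation factor Eef1a1 (0.45) rose and 2 others fell in males. Their medians were 0.06, -0.05, 0.02 and -0.03 in the 4 comparisons, next to 0.14, -0.03, 0.13 and 0.23 for the ribosomal protein genes. Of 31 tested ribosome biogenesis genes at most 3 passed in any of the 4, among them Ltv1 (-0.65), Mdn1 (1.09) and Sbds (-0.49) in ribosomal RNA of females.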

How the data were processed

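The authors deposited raw counts of 3' end tags per gene for 56 libraries (Lexogen Quant-Seq, 500 ng RNA, 50 bp reads per the labels). The submitters' processing notes name UMI-tools, STAR, HTSeq, GRCm39, DESeq2 1.40.1 and R 4.3.0; their settings are not given in the sources used here. The 5 HTSeq summary lines were left out: reads outside genes were 4.82% to 12.5% of a ribosomal and 9.54% to 23.4% of a total library, reads at several places 17.1% to 23.8% and 14.0% to 18.8%. Symbols came from a GENCODE M21 table that matched 52029 of 57010 gene IDs (97.6% of counts). The 83 members and all gene lists were chosen with earlier results of these data known.

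The quasi-likelihood F-test of edgeR 4.0.16 (run in R 4.3.3) was applied to the counts (filterByExpr, TMM, Benjamini-Hochberg over all genes, called at adjusted p under 0.05). Ribosomal libraries (9098 genes) and total libraries (12860) were fitted apart, and RNA types in a fit of all 56 (12546). Among the members, 78 passed the filter in ribosomal RNA (not Rps27a, Rps6, Rpl39l, Rpl24 and Rpl10l) and 80 in the other fits (not Rpl39l, Rpl24 and Rpl10l). CPM use TMM-scaled sizes over all 56 libraries, so their ratios differ slightly from fitted folds. Paralog ratios add a prior count of 2. Named were paralog, stalk and tagged-protein genes, the 5 highest and lowest by level, up to 6 called members per direction, and up to 3 called genes of each other list. On simulated counts, 16% of genes changed by 0.5 log2 and 71% of those changed by 1 were recovered in ribosomal RNA of females, and 45% and 80% in total RNA of males.

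Ribosomal and total libraries of 1 group and number were taken as 1 mouse, and only the number in the titles ties them. Their deviations from group means correlated by 0.157 in female knockouts, 0.065 in female controls, 0.053 in male knockouts and -0.145 in male controls. Promoter entries are of RefSeq, GRCm38.p6. Alternatives were other scaling (RLE, none), no filter, DESeq2 1.42.0, limma-voom (limma 3.58.1), other sets of libraries, the mouse block and each library left out. Fits without a scaling factor and without the 2 libraries with kidney transcripts were chosen after seeing the data. Values of some members are not reported here, though counts and medians over members include them.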

Additional observations from a re-analysis of the deposited data

Results flagged for a closer look

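Levels of 8 named members and the members' share of gene counts were searched for a single library far from the other 6 of its group (gap to the nearest over the group's range above 0.568) in 72 groups, where chance flags about 1 in 20. There were 5. Rpsa was at 284.9 CPM in ribosomal library male control 20, with the next at 129 CPM. Rpl34 was at 50.24 CPM in total library female control 21, with the next at 25.78 CPM. Rpl15 was low in ribosomal libraries female control 19 (25.32 CPM, next 44.09 CPM) and male knockout 12 (30.52 CPM, next 52.63 CPM) and in total library male knockout 2 (38.34 CPM, next 49.23 CPM). The knockout difference in ribosomal RNA differed between the sexes for Rpl34 (-1.38 log2) by the test of that difference.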

How the results depend on the processing

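Counts of members that passed moved by over 1.5 times in these fits, with the share of all genes called in brackets. Without a scaling factor they were 0 (4.73%) for the male knockout difference in ribosomal RNA and 1 (2.37%) for the sex difference of the knockout effect in ribosomal RNA. They were also 2 (3.91%) and 10 (7.67%) for male against female controls in ribosomal and total RNA, and 1 (3.22%) for the female knockout effect between RNA types. Without a filter on low counts they were 0 (4.02%), 7 (2.42%) and 12 (3.09%) for the first 3 of these, in ribosomal RNA. The same setting gave 2 (2.82%) for the female knockout in total RNA and 1 (1.28%) for the female knockout effect between RNA types. With limma-voom, the female and male knockout in ribosomal RNA gave 30 (21.1%) and 4 (19.2%). The sex difference of the knockout effect gave 9 (7.52%) and male against female controls 32 (20.6%), both in ribosomal RNA. Without ribosomal libraries under 750000 gene counts the female knockout in ribosomal RNA gave 20 (16.8%). Without the 5 total libraries rich in reads outside genes (over 19%) the male knockout in total RNA gave 1 (4.86%). Male against female controls then gave 6 (8.4%) in total RNA and the female knockout effect between RNA types 1 (4.54%). In the fit of all 56 libraries the female knockout gave 13 in ribosomal and 2 in total RNA, the sex difference of the knockout effect 6 in ribosomal RNA, and male against female controls 8 and 11. The 14 libraries of male and female controls alone gave 2 (6.27%) in ribosomal RNA. With the mouse as a replicate block the female knockout effect between RNA types gave 1 (2.08%). The block changed 1 call of a named member, that of Rpl12 in male controls. The block left ribosomal against total RNA at 57 members (66.8%) in females and 65 (69.1%) in males, within 1.5 times. In each of these fits the cause was not tested. The log2 fold changes of Rpl23a and Rpl22 between ribosomal and total RNA of female controls reversed to -0.028 and -0.034 without a scaling factor.

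Leaving out 1 library at a time gave 4 to 18 members for the female and 0 to 2 for the male knockout in ribosomal RNA, 1 to 6 and 7 to 22 in total RNA, 0 to 5 and 0 to 0 for the sex difference of the knockout effect, 2 to 22 and 9 to 21 for male against female controls, 54 to 59 and 60 to 65 for ribosomal against total RNA of female and male controls, and 0 to 3 and 0 to 0 for the knockout effect between RNA types. The share of all genes called is not given for fits that left out 1 library, here or above. Their counts are therefore not read as a result about the members. Without the 2 libraries with kidney transcripts the male knockout in total RNA gave 14 (11.6% of all genes). Depth limits low members in ribosomal RNA: Rpl3 had 0 counts in 1 male knockout library.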
